A study of Arabidopsis thaliana with 36 samples.

Results

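The genes described here are those that were nearly flat in wild-type roots after 1 h on salt and strongly upregulated there by 8 h. They were chosen from the L*er* (Landsberg *erecta*, wild-type) libraries by their level in counts normalised to library size (CPM: count of the gene over the sum of its library, multiplied by 1000000). The log2 ratio of the mean CPM on NaCl over the mean CPM under mock conditions, with 0.5 added to both means, had to be at least 2.5 at 8 h and between -0.5 and 0.5 at 1 h, and the mean level on NaCl at 8 h had to be at least 5 CPM. Of 28775 genes in the table, 234 passed the conditions at 8 h, and 44 of these also passed the condition at 1 h. Of the others, 170 were above 0.5 and 20 below -0.5 at 1 h. Because the L*er* values chose the 44 genes, every L*er* value below is a description without a test. Tests were made only in mutants and only among mutants.

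Expression was measured by RNA sequencing of the lower 1 cm of roots of 5-d-old Arabidopsis seedlings moved to plates with 140 mM NaCl or to mock plates, with many seedlings pooled per library, so that each value is an average over plants. There were 36 libraries in 12 groups of 3: L*er* and *della5x* at 1 h and 8 h, and *gai* and *ga4* at 8 h only, each with and without NaCl. *della5x* combined *gai-t6* and *rga-t2* with alleles of the RGL genes, namely *rgl1-1*, *rgl2-1* as well as *rgl3-4*, in the L*er* background, all mutations of DELLA genes. *gai* carries a GAI protein that gibberellin (GA) cannot remove, and *ga4* has a defect in a late step of GA synthesis. The mutations are carried by the whole plant, not by one root cell type. Libraries held 16772984 to 23811804 counts, with a median of 18884857.

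DELLA proteins restrain GA responses, and GA triggers their degradation. *della5x* is therefore a genotype without this brake, whereas *gai* and *ga4* are genotypes in which it stays on. High salt lowers water availability and brings toxic ions into the root, and much of the slower transcriptional response runs through abscisic acid (ABA). That hormone acts through receptors, phosphatases and kinases on bZIP transcription factors, which bind promoter elements built around ACGTG.

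The members were spread over all 5 chromosomes, with 10, 9, 5, 9 and 11 genes on chromosomes 1 to 5. *LTP4* and *LTP3*, which encode lipid transfer proteins, were neighbours, 2997 bases apart on chromosome 5, and *PRX52* and *LAC12* lay 13810 bases apart on the same chromosome. The promoters of 5 members are shown to let the members with the ACGTG element be compared with one without it: the member with the highest ratio, the only member of the fixed ABA list, a small heat shock protein gene, a transcription factor gene, and the member with the second highest ratio. Each is the 250 bases before the annotated gene start in RefSeq TAIR10.1, from 5′ to 3′ on the strand of the gene, and capitals mark ACGTG on either strand. None of these windows touches another annotated gene. The windows are at chr5:1580876-1581125 on the minus strand, chr4:10521009-10521258 on the plus strand, chr3:16984868-16985117 on the minus strand, chr2:18956962-18957211 on the plus strand and chr3:19255923-19256172 on the minus strand.
*PRX52*: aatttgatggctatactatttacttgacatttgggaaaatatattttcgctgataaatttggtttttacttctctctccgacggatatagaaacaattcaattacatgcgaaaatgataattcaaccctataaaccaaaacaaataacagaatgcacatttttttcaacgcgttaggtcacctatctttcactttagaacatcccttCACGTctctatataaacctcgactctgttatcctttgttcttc
*CYP707A1*: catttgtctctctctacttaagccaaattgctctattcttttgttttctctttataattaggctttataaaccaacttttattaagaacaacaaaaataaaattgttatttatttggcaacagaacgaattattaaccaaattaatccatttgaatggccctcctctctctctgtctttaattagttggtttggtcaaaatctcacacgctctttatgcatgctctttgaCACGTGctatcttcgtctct
*HSP17.4*: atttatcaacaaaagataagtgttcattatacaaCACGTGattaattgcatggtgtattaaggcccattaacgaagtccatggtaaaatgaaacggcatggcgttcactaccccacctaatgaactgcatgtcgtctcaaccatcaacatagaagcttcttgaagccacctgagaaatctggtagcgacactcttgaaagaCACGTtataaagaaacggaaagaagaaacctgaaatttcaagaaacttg
*WRKY43*: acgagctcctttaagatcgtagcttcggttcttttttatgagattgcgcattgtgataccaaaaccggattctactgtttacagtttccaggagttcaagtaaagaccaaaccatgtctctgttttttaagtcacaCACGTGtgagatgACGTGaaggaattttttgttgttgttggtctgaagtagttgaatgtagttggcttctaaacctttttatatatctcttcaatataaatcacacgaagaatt
*SULTR3;1*: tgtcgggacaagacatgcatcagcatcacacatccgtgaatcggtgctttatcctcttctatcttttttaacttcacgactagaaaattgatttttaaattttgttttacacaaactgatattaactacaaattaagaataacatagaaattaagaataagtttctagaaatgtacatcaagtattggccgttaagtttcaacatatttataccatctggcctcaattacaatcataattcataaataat

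The ACGTG element was present on either strand in the windows of 20 of 44 members (45.5%), against 6401 of 28003 counted genes with such a window (22.9%). The G-box CACGTG, which contains ACGTG on both strands, was present in 4 members (9.09%, against 6.45% of all genes). CCGAC, the core bound by DREB factors, was present in 6 members (13.6%, against 11.9%), and TTGAC, the core bound by WRKY factors, in 25 (56.8%, against 45%). CACG together with CATGT, the pair of elements read by stress NAC factors, was present in 12 (27.3%, against 16.2%). GATA, searched as a plain comparison, was present in 37 (84.1%, against 87.1%). These shares are descriptions of the letters in this window and were not tested. Among the 5 promoters printed, that of *SULTR3;1* held no ACGTG, and those of *CYP707A1*, *HSP17.4* and *WRKY43* held the G-box.

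After 8 h the members had a summed level of 3445 to 4262 CPM in the L*er* libraries on NaCl and of 324 to 583 CPM in those under mock conditions. Levels of single members on NaCl ranged from a mean of 5.63 CPM (*GSTU3*) to 868 CPM (AT2G22510), with a median of 19.8 CPM, and the 4 highest members made up 55.7% of the sum. Under mock conditions at 8 h, 18 of the 44 had a mean under 1 CPM. The summed level on NaCl at 8 h was 3176 to 3390 CPM in *della5x*, 3189 to 3650 CPM in *gai* and 3426 to 3841 CPM in *ga4*. The sums on NaCl at 8 h did not overlap those under mock conditions in any genotype.

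**Figure D1:**
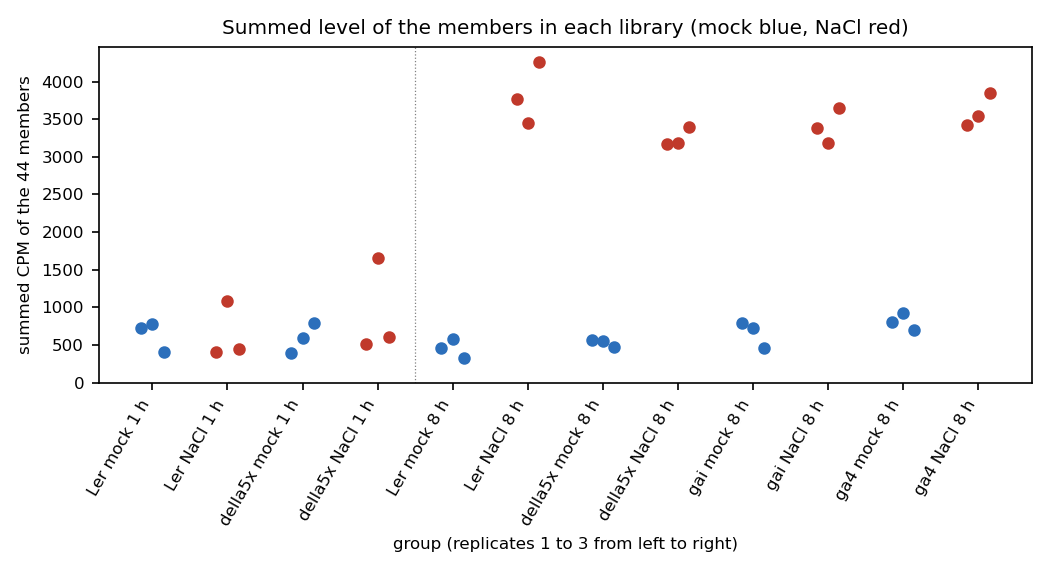
Summed CPM of the 44 members in each of the 36 libraries (points, 3 per group, mock blue, NaCl red; the dotted line separates 1 h from 8 h). The 12 NaCl libraries of 8 h lie between 3176 and 4262 CPM, and 1 NaCl library of *della5x* at 1 h, at 1650 CPM, lies apart from its 2 replicates at 509 and 602 CPM.

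The test of the response used only libraries that the rule did not see, namely the 18 libraries of *della5x*, *gai* and *ga4* at 8 h. A gene was called higher or lower when its edgeR quasi-likelihood P, adjusted over all 20204 genes tested, was under 0.05 and its log2 fold change exceeded 0.5 in size. All 44 members were called higher on NaCl in *della5x*, where 13.2% of all genes tested were. In *gai* 42 of 44 were called higher, against 10.4% of all genes, and in *ga4* also 42, against 10.5%. No member was called lower in *della5x*, *gai* or *ga4*, where 8.59%, 7.59% and 8.18% of all genes were. DESeq2 called no member lower either, against 7.77%, 7.41% and 7.69% of all genes. The edgeR unadjusted P was under 0.05 for all 44 in each, against 38.8%, 35.1% and 35.1% of all genes. The median log2 fold change of the members was 3.06 in *della5x*, 2.94 in *gai* and 3.04 in *ga4*, whereas the median over all genes tested was 0.0008, 0.0162 and 0.0029. In each mutant 1 member had 0 counts in every mock library of 8 h. Its lower bound, a log2 fold change of 5.50, 5.48 and 6.38, lies above the median like its estimate. Putting it at that bound could therefore not move the members' medians, and is no check of them. Of the 44 members, 37 passed the filter on low counts from the 9 mock libraries alone, and the others, *SULTR3;1*, *UMAMIT19*, *LTP4*, AT1G78400, AT5G52390, AT1G65500 and *MRN1*, passed only through the libraries on NaCl, so that their presence among the genes tested already required a higher level there.

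Every NaCl library was above every mock library for 44 of 44 members in *della5x*, 43 in *gai* and 42 in *ga4*. Among 18822 genes with a mean of at least 1 CPM the same held for 19.9%, 20.4% and 18.8%. In L*er* it held for all 44 members, a description since these libraries chose them, and for 22.8% of genes. The log2 ratio of means was lower in the mutant than in L*er* for 37, 34 and 37 members in *della5x*, *gai* and *ga4*. Since the rule picked high L*er* ratios, nothing is read from these counts.

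**Figure D2:**
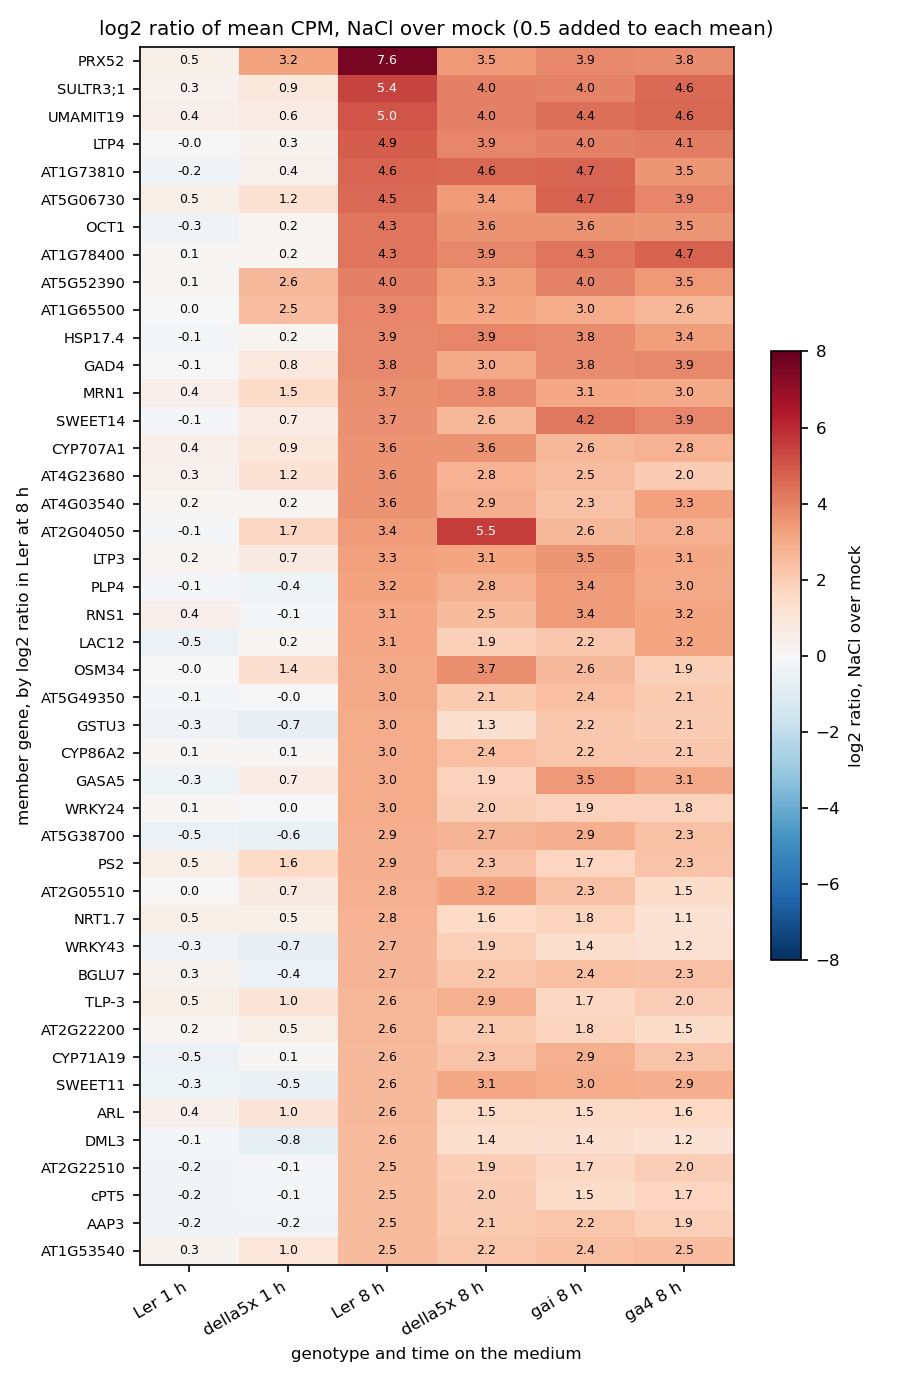
log2 ratio of mean CPM, NaCl over mock, with 0.5 added to both means, for the 44 members (one line each, ordered by the L*er* ratio at 8 h) in the 6 pairs of groups (columns). The L*er* columns chose the genes; at 8 h every ratio in *della5x*, *gai* and *ga4* is at least 1, the lowest being 1.15 in *ga4*.

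Transporter genes came next after *PRX52* in the order of the L*er* ratios. *SULTR3;1* (AT3G51895) encodes a sulfate transporter of the chloroplast envelope. It had 0 counts in all 3 L*er* mock libraries at 8 h and 24.6, 21.4 and 16.6 CPM on NaCl, which is at least 128-fold higher when 3 counts per library are taken as the floor. On NaCl it reached 16.9, 9.96 and 5.27 CPM in *della5x*, 9.14, 6.52 and 9.35 CPM in *gai*, and 14.4, 7.03 and 13.5 CPM in *ga4*. It was one of the members tested only through its NaCl libraries, so its P is not given. *UMAMIT19* (AT1G21890), of a family of amino acid exporters, had at most 0.229 CPM in any mock library of 8 h and 4.95 to 23.9 CPM on NaCl, with edgeR log2 fold changes of 6.71, 6.60 and 7.06 in *della5x*, *gai* and *ga4*, and it too was tested only through its NaCl libraries. *OCT1* (AT1G73220), a carrier of organic cations and carnitine, had 4.19, 1.51 and 2.43 CPM under mock conditions and 28.8, 31.1 and 52.8 CPM on NaCl in *della5x*. Its edgeR log2 fold changes were 3.87, 3.74 and 3.73 in the 3 mutants, the closest to each other among the transporters named here. The reads of *UMAMIT19* and *OCT1* may include some of a counted gene that overlaps them on the other strand, and the same holds for *HSP17.4*, *PLP4*, *CYP86A2*, *CYP71A19*, *cPT5* and *AAP3*.

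Both sugar transporters of the SWEET family among the members were upregulated in all 3 mutants. *SWEET11* (AT3G48740) exports sucrose, and *SWEET14* (AT4G25010) carries sugars and also GA. *SWEET14* stood at 0.566, 1.33 and 1.67 CPM under mock conditions and at 8.58, 7.08 and 14.2 CPM on NaCl in *della5x*, and at 0.158, 0.115 and 0.358 CPM and 11.3, 8.42 and 17.8 CPM in *gai*. The levels on NaCl overlapped between these mutants, and those under mock conditions did not. Its edgeR log2 fold change was 3.09 in *della5x* (SE 0.39, adjusted P = 1.16e-05), 5.85 in *gai* and 4.93 in *ga4*. The amino acid permease gene *AAP3* (AT1G77380) had edgeR log2 fold changes of 2.2, 2.25 and 1.95, and the phloem nitrate transporter gene *NRT1.7* (AT1G69870) had 1.81, 2.23 and 1.34, all called higher.

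Among genes of the cell wall and of lignin, *PRX52* (AT5G05340), a class III peroxidase linked to lignin in stems, had the highest L*er* ratio. In the wild type at 8 h its mock libraries had 0.106, 0.106 and 0 CPM and its NaCl libraries 108, 124 and 100.4 CPM. In *della5x* the mock libraries had 0.34, 4.21 and 4.05 CPM and the NaCl libraries 37.3, 44.9 and 30.01 CPM. In *gai* and *ga4* the mock libraries ranged from 0 to 9.55 CPM and the NaCl libraries from 34 to 73.2 CPM. All mutant libraries on NaCl for 8 h were above all mutant mock libraries of 8 h, and below all L*er* libraries on NaCl of that time. Since the rule picked high L*er* ratios and that of *PRX52* was the highest, nothing is read from its place below L*er*. The edgeR log2 fold changes, 3.72, 4.09 and 4.03, had SEs of 1.06 to 1.07 (adjusted P = 0.0131, 0.00884 and 0.01). AT5G06730, annotated as another peroxidase, had edgeR log2 fold changes of 3.84, 5.47 and 4.27. The laccase gene *LAC12* (AT5G05390) had 2.13, 2.49 and 3.74, again in the order *della5x*, *gai*, *ga4*. AT1G78400, annotated as a pectin lyase-like protein, had 0 counts in every mock library of *della5x* and *ga4* at 8 h and in all 3 of L*er*. It was at least 45.3-fold higher on NaCl in *della5x* and at least 83.4-fold higher in *ga4*, against a floor of 3 counts per library.

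*CYP86A2* (AT4G00360), a fatty acid hydroxylase of cutin synthesis, had 97.2, 94.1 and 71.6 CPM under mock conditions and 495, 456 and 437 CPM on NaCl in *della5x*. The replicates of each group lay close together, and the edgeR log2 fold changes of 2.46, 2.24 and 2.17 all had a SE of 0.17. *LTP4* (AT5G59310) was at or under 0.505 CPM in all 9 mutant mock libraries of 8 h and between 3.91 and 18.1 CPM in the 9 on NaCl. Its neighbour *LTP3* (AT5G59320) was expressed without salt, at 2.32 to 11.2 CPM in the mutant mock libraries of 8 h, and reached 22.5 to 111 CPM on NaCl. *LTP3* was called higher in all 3 mutants, with edgeR log2 fold changes of 3.29, 3.73 and 3.23. Those of *LTP4* were 5.67, 7.17 and 5.86, but it was tested only through its NaCl libraries, so nothing is read from its calls. AT4G03540, of the UPF0497 family that includes the proteins of the Casparian strip membrane domain, had edgeR log2 fold changes of 3.03, 2.41 and 3.42. AT2G22510, a hydroxyproline-rich glycoprotein gene, had 191, 167 and 175 CPM under mock conditions and 698, 683 and 670.3 CPM on NaCl in *della5x*, with an edgeR log2 fold change of 2.00 (SE 0.14). AT4G23680, of a family of lipid transport and polyketide cyclase proteins, and AT5G49350, a glycine-rich protein gene, had edgeR log2 fold changes of 2.88, 2.52 and 2.07 and 2.19, 2.47 and 2.19. AT5G52390 and AT1G65500, whose products are little characterised, were at most 0.334 CPM in the mutant mock libraries of 8 h and reached 1.28 to 12.8 CPM and 2.5 to 7.3 CPM on NaCl.

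Hormone and defence-like members formed a further group. *CYP707A1* (AT4G19230) encodes an ABA 8′-hydroxylase, which breaks ABA down. It had 21.8, 16.2 and 18.2 CPM under mock conditions and 192, 213 and 289 CPM on NaCl in *della5x*, 37.7, 27 and 22.4 CPM and 184, 181 and 181 CPM in *gai*, and 35.1, 35 and 29.8 CPM and 231, 191 and 261 CPM in *ga4*. The mock libraries of *della5x* were thus all below those of *gai* and *ga4*, and the NaCl libraries of *della5x* and *gai* did not overlap either. The edgeR log2 fold changes were 3.68 (SE 0.19), 2.67 (0.18) and 2.81 (0.18). *OSM34* (AT4G11650), an osmotin of the thaumatin-like family, reached 286 to 353 CPM on NaCl in *della5x*, 512 to 666 CPM in *gai* and 266 to 601 CPM in *ga4*, and *TLP-3* (AT1G75030), of the same family, 48.6 to 71 CPM over the mutants. *GASA5* (AT3G02885), of the family of small GA-regulated peptides, had edgeR log2 fold changes of 2.12, 4.34 and 3.46. *MRN1* (AT5G42600), the enzyme that makes the triterpene marneral, had 4.20, 5.23 and 4.82, and *GAD4* (AT2G02010), a glutamate decarboxylase, 3.48, 4.64 and 4.78. *GAD4* has a close copy, *GAD3*, with 90.9% identity over 1464 bases, so reads could have been shared between them.

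The transcription factor genes among the members were *WRKY24* (AT5G41570), *WRKY43* (AT2G46130) and AT2G22200, of the AP2/ERF class. The replicates of *WRKY24* lay close together, with 15.8, 17.1 and 15.4 CPM under mock conditions and 64.6, 66.4 and 65.3 CPM on NaCl in *della5x*. Its edgeR log2 fold changes were 2.08, 1.93 and 1.91, each with a SE of 0.14. *WRKY43* had 2.09, 1.56 and 1.38, and AT2G22200 2.45, 2.47 and 1.91, all called higher. Of the small heat shock protein genes, *HSP17.4* (AT3G46230) had NaCl levels of 15.5, 18.2 and 55.9 CPM in *della5x*, 11.2, 12.6 and 27.5 CPM in *gai* and 10.2, 6.71 and 22 CPM in *ga4*. In each of these groups 1 library was more than 2 times as high as another, and all were still above every mock library of 8 h, at most 1.64 CPM. The other, AT1G53540, had edgeR log2 fold changes of 2.47, 2.75 and 3.02.

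A few members missed the call in *gai* or *ga4*. AT2G04050, a MATE efflux transporter gene with a copy of 90.3% identity beside it (AT2G04070), had 0.812, 10.8 and 112 CPM on NaCl in *della5x*, 0.805, 0.462 and 16 CPM in *gai* and 10.7, 21.6 and 23.2 CPM in *ga4*. Its adjusted P was 0.135 in *gai* and 0.0993 in *ga4*, with log2 fold changes of 3.39 and 3.10. *cPT5* (AT5G58780), a cis-prenyltransferase gene, missed the call in *gai* (log2 fold change 1.90, adjusted P = 0.0515). AT2G05510, a glycine-rich protein gene, missed it in *ga4*, where 1 mock library had 250 CPM and the other 2 had 57.5 and 55.8 CPM (log2 fold change 1.51, adjusted P = 0.111).

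**Figure D3:**
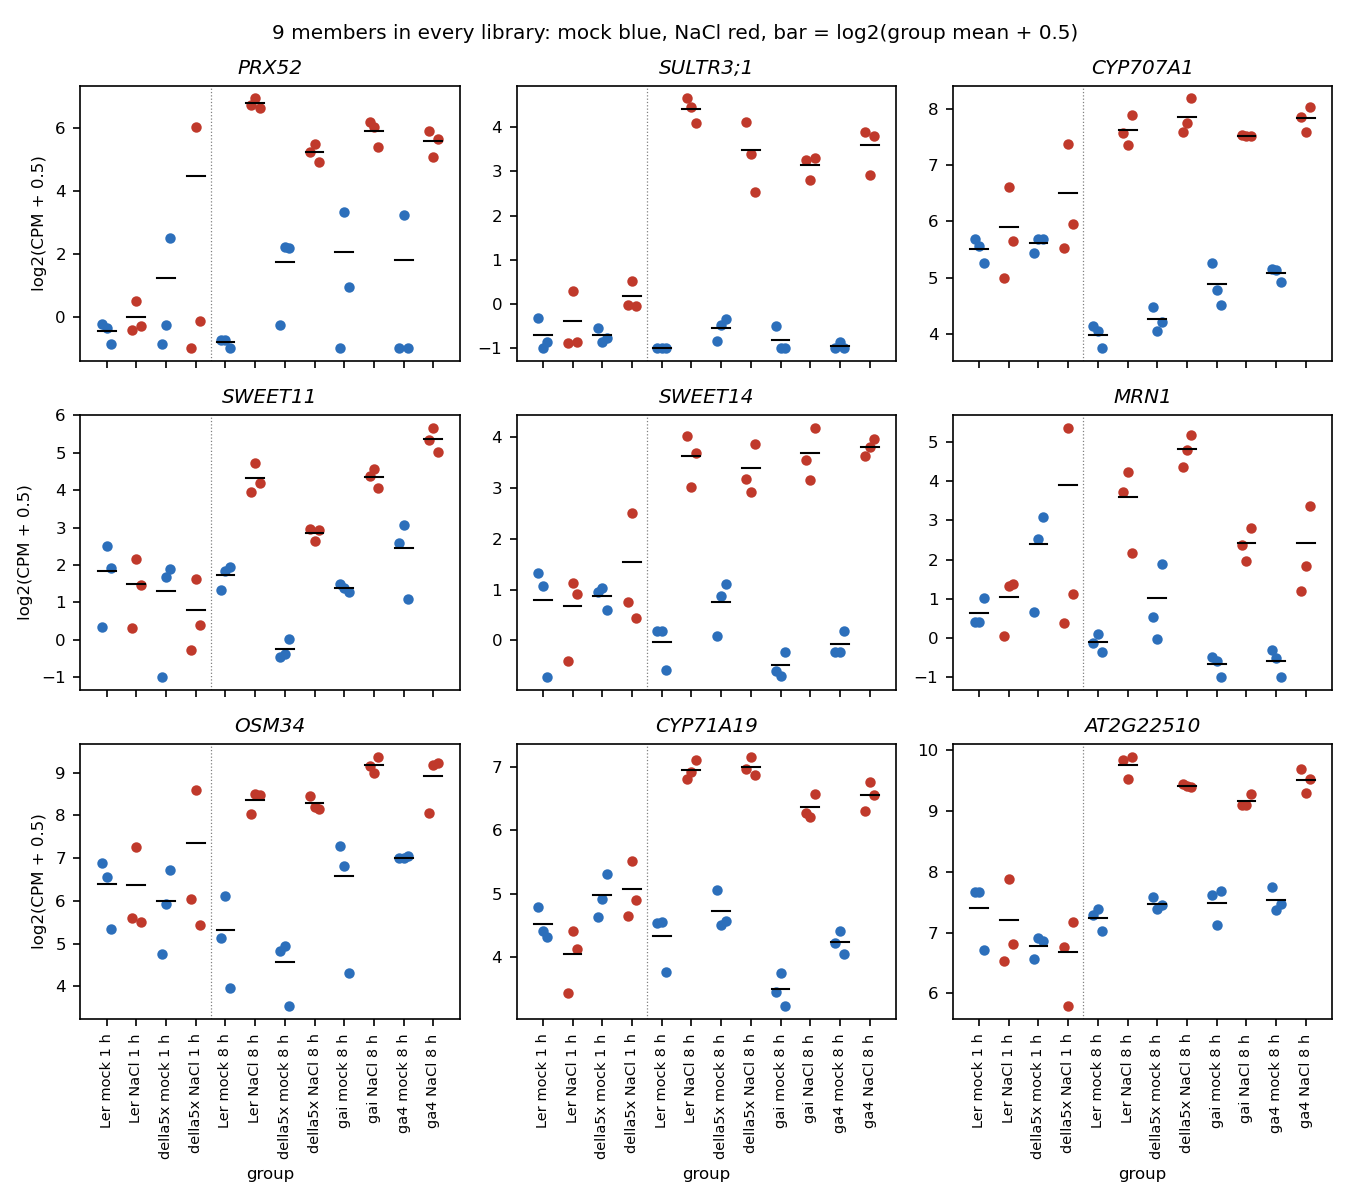
log2(CPM + 0.5) of 9 members in all 36 libraries (points, mock blue, NaCl red; bars are log2 of the group mean plus 0.5; the dotted line separates 1 h from 8 h). At 8 h the NaCl libraries of these 9 members lie above the mock libraries of the same genotype, and the *SWEET11* mock libraries of *della5x* at 8 h lie below those of *gai* and *ga4*.

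The question whether the state of DELLA signalling goes with the size of the late response was put to the mutants by the difference of their responses, without L*er*. No member had an edgeR call in any of the 3 differences. Over all 20204 genes, 1 was called higher and 1 lower for *gai* minus *della5x* (0.00495% each) and 0 for *ga4* minus *della5x* and for *gai* minus *ga4*. An edgeR unadjusted P under 0.05 was reached by 6, 6 and 4 members in the 3 differences, against 5.84%, 4.74% and 3.12% of all genes. Of these, *SWEET14* and *CYP707A1* were in both differences from *della5x*. For *SWEET14* the difference of log2 fold changes was 2.75 in *gai* (SE 0.64, adjusted P = 0.28) and 1.83 in *ga4* (SE 0.58, adjusted P = 0.8). For *CYP707A1* it was -1.01 (SE 0.25, adjusted P = 0.329) and -0.88 (SE 0.25, adjusted P = 0.72). With DESeq2, *CYP707A1* in *gai* minus *della5x* was the 1 member called, as lower, against 0.173% of all genes with that tool, and no member was called in the other differences. The 3 differences share libraries and are not independent of each other.

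Levels at 8 h differed between mutants for a few members. Under mock conditions, 4 members were called higher and 4 lower in *gai* than in *della5x*, against 3.06% and 1.79% of all genes tested. In *ga4* 4 were called higher than in *della5x*, against 1.91% of all genes, and 0 lower with edgeR, against 0.94%, where DESeq2 called 3, against 1.28%. On NaCl, 2 were higher and 3 lower in *gai* (2.14% and 2.03% of all genes), and 1 higher and 1 lower in *ga4* (1.49% and 1.48%). Between *gai* and *ga4* edgeR called 0 members under mock conditions, where 0.119% of genes were higher and 0.158% lower in *gai*, and 0 on NaCl, where 0.0742% and 0.0792% were. An edgeR unadjusted P under 0.05 was reached by 8 and 5 members there, against 13.9% and 10.6% of all genes. DESeq2 called 1 higher and 3 lower under mock conditions, against 0.434% and 0.624% of all genes, and 0 on NaCl. The *gai* and *ga4* comparisons share the *della5x* libraries. These counts moved when single libraries were left out, and so did the calls over all genes. The 619 genes higher in *gai* under mock conditions became 399, 316 and 276 without *gai* replicate 1, *gai* replicate 2 and *della5x* replicate 3. Without *gai* replicate 3 they were 603. On NaCl the 410 genes lower in *gai* became 153 and 122 without *gai* replicate 1 and 2, and 524 without *gai* replicate 3. Nothing particular to the members is read from the moves of their counts. Under mock conditions the 4 members higher in *gai* became 1 without *gai* replicate 1 or 2 or *della5x* replicate 3, 2 without *della5x* replicate 2, and 6 without *gai* replicate 3, and the 4 lower became 1 without *gai* replicate 2 and 2 without *della5x* replicate 3. The 4 higher in *ga4* became 1 without *della5x* replicate 3 and 2 without *della5x* replicate 2. On NaCl the 3 lower in *gai* became 0 without *gai* replicate 1 or 2, 1 without *della5x* replicate 2, and 5 without *gai* replicate 3, and the 2 higher became 1 without *della5x* or *gai* replicate 2. The 1 lower in *ga4* became 0 without *della5x* replicate 2 or 3 or *ga4* replicate 1 or 2.

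*SWEET11* was called in all 4 comparisons with *della5x*. It had 0.227, 0.266 and 0.524 CPM under mock conditions in *della5x*, 2.32, 2.13 and 1.94 CPM in *gai* and 5.46, 7.94 and 1.63 CPM in *ga4*. On NaCl it had 7.25, 5.76 and 7.15 CPM in *della5x*, 20.4, 23.2 and 16 CPM in *gai* and 40.2, 50.4 and 31.8 CPM in *ga4*. The *della5x* libraries were below all others in both conditions. Under mock conditions the log2 difference from *della5x* was 2.62 in *gai* (SE 0.51, adjusted P = 0.00602) and 3.86 in *ga4* (SE 0.48, adjusted P = 0.000117), and on NaCl 1.53 and 2.59. As a description, L*er* had 2.01, 3.08 and 3.38 CPM under mock conditions and 15, 25.9 and 17.8 CPM on NaCl.

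*MRN1* went the other way. On NaCl it had 20.2, 27.1 and 35.5 CPM in *della5x*, 4.66, 3.44 and 6.54 CPM in *gai* and 1.81, 3.09 and 9.77 CPM in *ga4*, so that all *della5x* libraries were above all of the others. The log2 difference was -2.53 in *gai* (adjusted P = 0.0224) and -2.5 in *ga4* (adjusted P = 0.0284). Under mock conditions the log2 difference was -3.56 in *gai*, counted among the members called lower, and -3.12 in *ga4*, which was not called. *MRN1* passed the low-count filter only through the libraries on NaCl, so its P under mock conditions is not given. Its call there in *gai* was kept in 6 of 10 alternative fits. *CYP71A19* (AT4G13290), a cytochrome P450, and *BGLU7* (AT3G62740), a beta-glucosidase, were lower in *gai* than in *della5x* under both conditions. The log2 differences were -1.27 and -0.68 for *CYP71A19*, and -1.50 and -1.30 for *BGLU7*, under mock conditions and on NaCl. *CYP71A19* overlaps a counted gene on the other strand, and *BGLU7* has a stretch of 92.2% identity with *BGLU8*.

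*OSM34* and *CYP707A1* were higher in both *gai* and *ga4* than in *della5x* under mock conditions, and neither was called on NaCl. *OSM34* had 27.9, 30.5 and 11.1 CPM in *della5x*, 154, 112 and 19.3 CPM in *gai* and 128, 127 and 131 CPM in *ga4*, and 1 *gai* library overlapped those of *della5x*. The log2 differences were 2.05 and 2.5. For *CYP707A1* they were 0.64 and 0.85. *TLP-3* was higher in *gai* under mock conditions, by 1.60, AT2G05510 higher in *ga4*, by 2.68, and *SWEET14* lower in *gai*, by 2.46 on the log2 scale (-2.46, adjusted P = 0.0124). *RNS1* (AT2G02990), a ribonuclease induced by phosphate starvation, was called only on NaCl in *gai*: 37.7, 34.1 and 25.1 CPM, against 9.16, 9.15 and 8.47 CPM in *della5x* (log2 difference 1.82, adjusted P = 0.0018). Its mock difference was not called (1.12, adjusted P = 0.0827), and neither was the difference between both (0.70, adjusted P = 0.927).

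**Figure D4:**
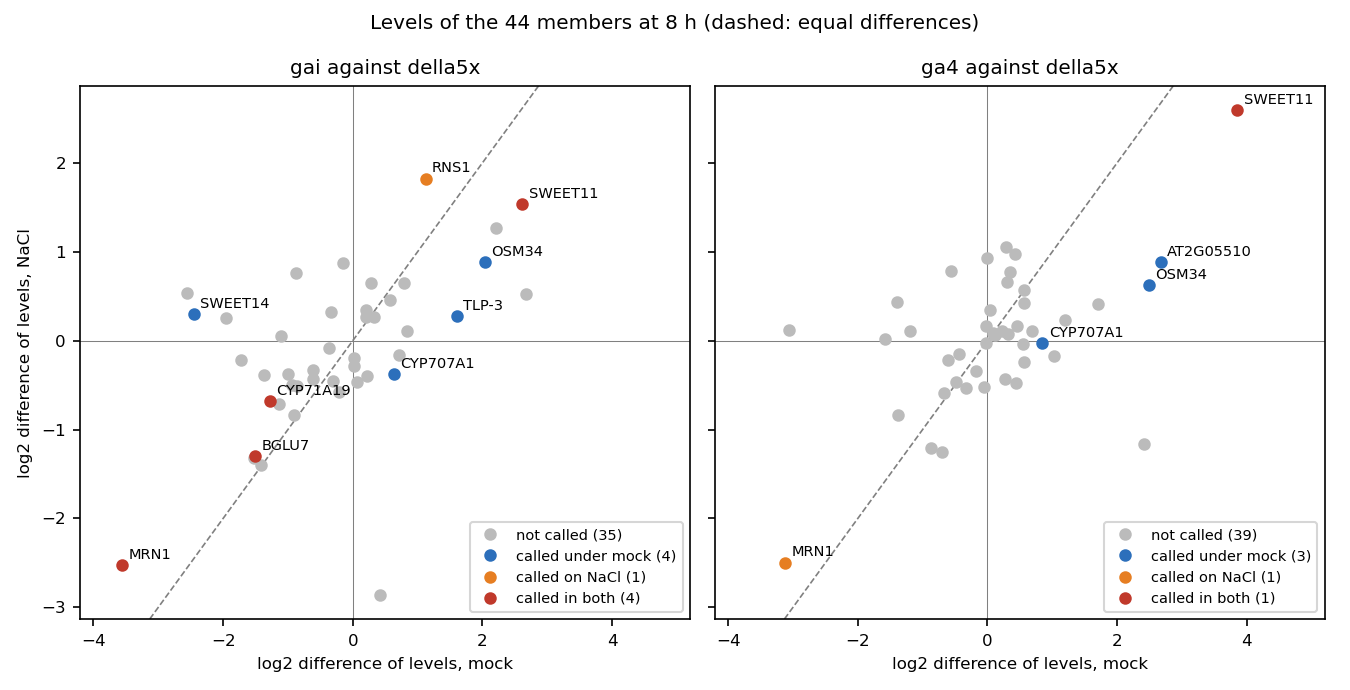
log2 difference of the level of each of the 44 members from *della5x* at 8 h, under mock conditions (x axis) and on NaCl (y axis), for *gai* (left) and *ga4* (right). Colours give the edgeR call and named points are called at least once: 9 members in *gai* and 5 in *ga4*, with *SWEET11* at the upper right and *MRN1* at the lower left in both panels.

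Markers of tissue types were read beside these differences in level. All 8 root markers were detected, with a sum of 349 to 982 CPM over the 36 libraries. At 8 h their sum was lower on NaCl than under mock conditions with no overlap in each genotype, at 385 to 466 against 561 to 603 CPM in L*er*, 471 to 550 against 554 to 563 CPM in *della5x*, 368 to 460 against 507 to 683 CPM in *gai*, and 349 to 389 against 549 to 603 CPM in *ga4*. In L*er* the fall was not shared by every root marker. The log2 ratios of means there at 8 h were -0.85 for *TIP2;3*, -0.68 for *PLT1*, -0.65 for *SHR* and -0.32 for *SCR*. They were -0.24 for *PHT1;1*, -0.11 for *PLT2*, -0.03 for *COBL9* and 1.05 for *WOX5*. Of the markers of green tissue, 6 of 10 had a mean of at least 1 CPM. The summed green markers were 44.2 to 85.7 CPM in *della5x* under mock conditions at 8 h, 228 to 255 CPM in *gai* and 88.4 to 210 CPM in *ga4*, and on NaCl 25.7 to 40.4, 79.1 to 161 and 55.4 to 111 CPM. Of the 10 green markers, *RBCS1B* and *CAB2* had a median of 0 CPM over the 36 libraries, whereas *PSBO1* had 32.8, *CAB1* 24.7, *PSAD-1* 14.1, *RBCS1A* 10.7 and *LHCA1* 6.32 CPM. Summed, they separated *della5x* from *gai* and *ga4*, as *SWEET11* did, and were lower on NaCl than under mock conditions at 8 h in L*er*, *della5x* and *gai*, with overlapping ranges in *ga4*, whereas the members were higher. The part of the root and green markers in the results was not tested. Seed markers were near 0, at most 1.1 CPM summed over 9 genes. In whole root pieces, fewer cells of a type and less RNA per cell cannot be told apart. As a check of the labels, *RGL1* did not exceed 0.304 CPM in any *della5x* library, whereas every other library had 4.05 CPM or more. *RGA* and *GAI* were lower in *della5x* without overlap but still counted. *RGA* had 27.2 to 53.4 CPM there and 72 to 120 CPM elsewhere, and *GAI* 2.78 to 11.6 CPM and 12.4 to 24.25 CPM.

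The early time was tested in *della5x*, the one mutant sampled at 1 h. There 2 of 44 members were called higher on NaCl, against 5.87% of 20177 genes tested, and edgeR called 0 lower, against 3.46%. DESeq2 called 4 higher, against 6.59% of all genes, and 0 lower, against 4.24%. An edgeR unadjusted P under 0.05 was reached by 7 members, against 25.6% of all genes. Every NaCl library was above every mock library for 4 members, against 14.8% of expressed genes, and below for 2, against 2534 of 18822 expressed genes. *SULTR3;1*, 1 of the 2, had 0.191, 0.0556 and 0.0877 CPM under mock conditions and 0.484, 0.937 and 0.463 CPM on NaCl. Its log2 fold change was 2.42 (SE 0.69). It did not pass the low-count filter on the mock libraries of 8 h alone, so its P is not given here either. AT1G53540 had 1, 0.946 and 1.97 CPM and 3.33, 3.6 and 2.37 CPM, a log2 fold change of 1.23 (SE 0.31, adjusted P = 0.0261). Both were far below their levels at 8 h.

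One library stood apart at 1 h. Replicate 2 of *della5x* on NaCl for 1 h had correlations of 0.916 and 0.935 with its replicates, over log2(CPM + 0.5) of 18822 genes, whereas the other 34 pairs of replicates had 0.952 to 0.992. Of the 44 members, 33 were highest in that library among the 3, and 23 were at least 2 times as high there as in the higher of the other 2. The share over all genes was not computed, so nothing particular to the members is read from these counts. *PRX52* had 0, 65.1 and 0.405 CPM, *MRN1* 0.806, 40.8 and 1.68 CPM, and *OSM34* 66, 384 and 42.4 CPM in replicates 1, 2 and 3. With all libraries the median log2 fold change of the members at 1 h was 0.65, and without that library -0.23. Without it 1 member was called higher (*TLP-3*, 1.27), against 6.31% of all genes, and 1 lower (AT5G38700, -1.61), against 5.34%. Neither *SULTR3;1* (1.99) nor AT1G53540 (1.097, adjusted P = 0.0546) was called without that library, at log2 fold changes close to those with it. Leaving out *della5x* mock replicate 1 or 2 of 1 h left 0 members called higher, against 775 of 20486 and 805 of 20512 genes. Leaving out mock replicate 3 or NaCl replicate 1 left 1, against 947 of 20472 and 1014 of 20467 genes. In L*er* on NaCl for 1 h, too, 1 library stood above the others in the summed level of the members, at 1090 CPM against 404 and 443 CPM. *CYP707A1* there had 31.5, 97.3 and 49.6 CPM against 50.9, 47.1 and 37.7 CPM under mock conditions, so that its flat mean at 1 h covers libraries on both sides.

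Whether the response was later than 1 h was tested in *della5x* by the difference of the log2 fold changes, 8 h minus 1 h. With all 12 libraries 15 of 44 members were called higher, against 3.35% of all genes, and 0 lower (2.35% of genes). DESeq2 called 23 higher, against 4.57% of all genes. The difference was above 0 for all 44 members, with a median of 2.57, and 28 members had an edgeR unadjusted P under 0.05, against 20.2% of all genes. Without the library that stood apart, 35 of 44 members were called higher, against 7.51% of all genes in that fit, among them all 15, and the median was 3.52. The 35 include *SULTR3;1*, AT5G52390, AT1G65500 and *MRN1*, which did not pass the low-count filter on the mock libraries of 8 h alone, so nothing is read from their calls. The 15 all passed it on those libraries. AT1G73810, a glycosyltransferase family gene, had the largest difference among the called members. It had 5.78, 4.78 and 10.9 CPM under mock conditions and 5.11, 16.2 and 6.48 CPM on NaCl at 1 h, and 1.98, 2.08 and 4 CPM and 79.1, 64 and 85.1 CPM at 8 h (difference 4.49, SE 0.64, adjusted P = 0.00326). *HSP17.4* followed, at 4.10. The smallest of the 15 differences was that of *WRKY24*, at 2.07, which also had the smallest adjusted P (SE 0.23, adjusted P = 0.00115). *CYP86A2*, at 2.35, *CYP707A1*, at 2.77, and AT2G22510, at 2.11, were also called.

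The smallest differences without a call were those of *PRX52* (0.22), *ARL* (0.60, AT2G44080, an ARGOS-like gene of organ growth), *PS2* (0.85, AT1G73010, a pyrophosphatase induced by phosphate starvation), AT1G53540 (1.23) and *NRT1.7* (1.24). For *PRX52*, *ARL* and *PS2*, replicate 2 at 1 h had 65.1, 27.8 and 28.5 CPM, above every *della5x* library of 8 h. Without it the differences were 7.01, 1.84 and 2.65, and those of *PRX52* and *PS2* were called. Under mock conditions the members of *della5x* had a median log2 difference of -0.25 between 8 h and 1 h, with 0 edgeR calls (0.377% of all genes were higher and 1.72% lower at 8 h), 9 members with an unadjusted P under 0.05, against 16.9% of all genes, and 2 lower with DESeq2, against 3.61%. This comparison was added after seeing the data. In L*er*, the mean level under mock conditions was higher at 1 h than at 8 h for 42 members. The median of the members' means there was 2.87 CPM at 1 h and 1.46 CPM at 8 h under mock conditions. On NaCl it was 2.80 CPM at 1 h and 19.8 CPM at 8 h. The L*er* ratios at 1 h and 8 h thus have different mock levels below them. Since the L*er* libraries chose the members, the part of the mock levels in these ratios was not tested.

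**Figure D5:**
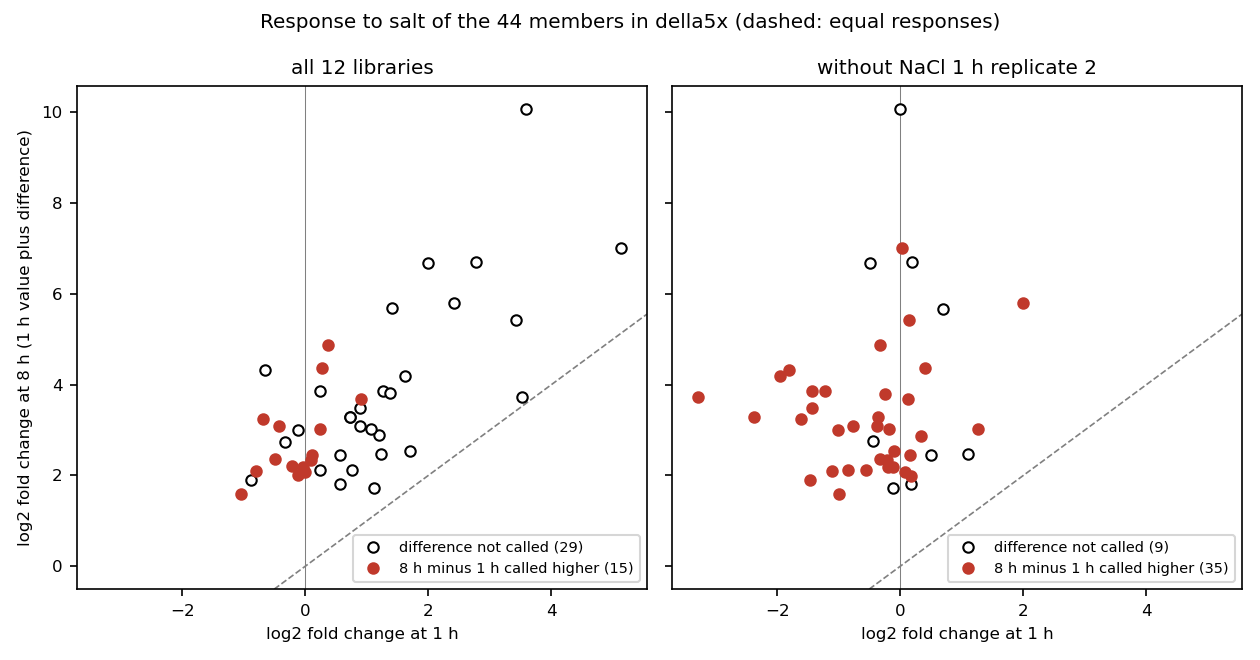
edgeR log2 fold change of the 44 members in *della5x* at 1 h (x axis) against that at 8 h, taken as the value at 1 h plus the difference (y axis), with all 12 libraries (left) and without NaCl replicate 2 of 1 h (right). Filled points are members whose difference, 8 h minus 1 h, was called higher, 15 on the left and 35 on the right, and all points lie above the dashed line of equal responses.

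The 170 genes that passed the same conditions at 8 h but were already above 0.5 at 1 h in L*er* were set beside the members in *della5x*. At 1 h 107 of the 170 were called higher, with a median log2 fold change of 1.93, against 2 of 44 members and a median of 0.65. At 8 h 170 of 170 were called higher, with a median of 3.65, against 44 of 44 and 3.06. Of all genes tested, 5.87% were called higher at 1 h and 13.2% at 8 h. Both sets were chosen by their L*er* values, so that the 2 sets are described and not tested against each other.

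Of the fixed lists, chosen with earlier results of these data known, only the list of ABA synthesis and breakdown held a member, *CYP707A1*. For comparison, 13.2% of all genes tested were called higher and 8.59% lower in *della5x* at 8 h. In *gai* the shares were 10.4% and 7.59%, in *ga4* 10.5% and 8.18%, and in *della5x* at 1 h 5.87% and 3.46%. In *della5x* at 8 h, 17 of 30 tested genes of ABA core signalling were called higher and 5 lower, 17 of 18 genes of LEA proteins and dehydrins higher and 0 lower, 16 of 17 suberin genes higher and 0 lower, and 5 of 11 genes of ABA synthesis and breakdown higher and 0 lower. In *gai* and *ga4* the corresponding counts of higher genes were 17 and 15 for ABA core signalling, 15 and 16 for LEA proteins and dehydrins, 14 and 16 for suberin, and 4 and 3 for ABA synthesis and breakdown. Of 10 tested osmolyte genes, 6, 5 and 5 were called higher in *della5x*, *gai* and *ga4* and 2, 1 and 1 lower, and of 10 tested genes of senescence and NAC factors 8, 7 and 7 higher and 0, 1 and 1 lower. Of the seed oil and storage list, 2 of 12 genes could be tested, and 1 was called higher in each mutant. At 1 h in *della5x*, 14 of 20 LEA and dehydrin genes and 19 of 30 genes of ABA core signalling were called higher, and 4 of the latter lower, whereas 2 of 17 suberin genes were called higher and 1 lower. Of the ABA genes, *NCED3*, which makes the rate-limiting enzyme of ABA synthesis, had edgeR log2 fold changes of 4.19, 2.62 and 3.06 at 8 h in *della5x*, *gai* and *ga4*.

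The edge of the list is not sharp. The members with the smallest ratios in L*er* at 8 h were AT1G53540 (2.51) and *AAP3* (2.51), and just outside were *MYB107* (2.46) and *MYB52* (2.43). At 1 h *PS2* (0.50) and AT5G06730 (0.49) were just inside and AT3G09950 (0.53) and *PYD4* (0.58) just outside on the upper side, and *LAC12* (-0.48) and *CYP71A19* (-0.47) inside and *ChiC* (-0.51) and *CWINV5* (-0.57) outside on the lower side. By level, *GSTU3* (5.63 CPM) and AT2G22200 (6.08 CPM) were inside and *GPT2* (4.17 CPM) and AT2G15780 (3.64 CPM) outside. With each of the 12 L*er* libraries left out in turn, the rule gave 31 to 54 genes, and 7 of the 44 were in the list every time: *LTP4*, AT1G78400, AT5G52390, AT1G65500, *GAD4*, AT2G04050 and *WRKY24*.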

How the data were processed

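RNA was taken from the lower root parts of pooled seedlings and sequenced as paired reads with a kit that does not mark strand. The authors trimmed reads with fastp, aligned them to TAIR10 with HISAT2 and counted reads per gene with HTSeq, and the deposited values are these raw counts, 1 table with 28775 genes and 36 libraries of 16772984 to 23811804 counts. The counting mode and tool versions are not given in the sources used here. Gene models, names and sequences were read from RefSeq TAIR10.1, in which 28009 of the gene IDs were found.

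Groups came from the genotype, treatment and time labels. The labels call the libraries replicates without replicate numbers, so that the numbers used here only name libraries, and P-values measure the spread between these libraries. The members and the gene lists were chosen with earlier results of these data known. CPM values were divided by column sums and were used for levels and for the choice of members. Tests used the counts in edgeR 4.0.16 (R 4.3.3): TMM scaling, low counts removed by filterByExpr (min.count 10, min.total.count 15), quasi-likelihood fits and Benjamini-Hochberg adjustment over all genes tested. One fit held the 18 libraries of the mutants at 8 h, and another the 12 libraries of *della5x*. Counting error and biological spread both enter these fits. Alternatives were RLE scaling, no filter beyond 1 count, DESeq2 1.42.0, the L*er* libraries added to the fit, each library left out in turn, and other limits and TMM-scaled CPM for the choice of members. The fits were tested on simulated data.

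Named genes were those with the largest ratio or level in L*er*, members in the fixed lists, called members of each comparison, members not called at 8 h or least changed between times, genes next to a limit, neighbours, transcription factors and transporters. Others named at 1 h were chosen after their values were seen.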

Additional observations from a re-analysis of the deposited data

Results flagged for a closer look

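In *della5x*, 15 members had a response that was called larger at 8 h than at 1 h by edgeR, the test being of the difference itself. The differences of log2 fold changes, 8 h minus 1 h, were 4.49 for AT1G73810, 4.10 for *HSP17.4*, 3.94 for AT5G38700 (a cotton fibre protein family gene), 3.51 for *PLP4* (a patatin-like lipid hydrolase) and 2.90 for *WRKY43*. They were 2.86 for *BGLU7*, 2.79 for AT4G03540, 2.77 for *CYP707A1*, 2.64 for *DML3* (a DNA demethylation glycosylase) and 2.41 for *AAP3*. They were 2.35 for *CYP86A2*, 2.25 for *CYP71A19*, 2.22 for AT5G49350, 2.11 for AT2G22510 and 2.07 for *WRKY24*. All 15 were also called without NaCl replicate 2 of 1 h, the library that stood apart, when 35 members were called. Of these, 14 were called in each of the 16 alternatives. *DML3* was called in 9 of 16, with differences of 2.23 to 2.95 and adjusted P of 0.0024 to 0.0873, and its call was lost without mock replicate 1 or 3 or NaCl replicate 1 of 1 h, without mock replicate 1 of 8 h, and without each NaCl replicate of 8 h.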

How the results depend on the processing

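No paired analysis was possible because the labels carry no replicate numbers. With DESeq2 in place of edgeR, 1 member was called lower for the response of *gai* minus *della5x*, 3 were lower under mock conditions in *ga4* than in *della5x*, 1 was higher and 3 were lower under mock conditions in *gai* than in *ga4*, and 2 were higher on NaCl in *ga4* than in *della5x*. It also called 4 higher at 1 h in *della5x*, 23 with a larger response at 8 h than at 1 h, and 2 lower under mock conditions at 8 h than at 1 h. With the L*er* libraries in the fit, 1 member was lower under mock conditions in *ga4* than in *della5x*, 1 in *gai* than in *ga4*, and 1 at 8 h than at 1 h in *della5x*. With each library left out in turn, 42 to 44 members were called higher at 8 h in *della5x*, 41 to 43 in *gai* and 39 to 40 in *ga4*. Under mock conditions, 1 to 6 were higher and 1 to 4 lower in *gai* than in *della5x*, 1 to 5 higher and 0 to 1 lower in *ga4* than in *della5x*, and 0 higher and 0 to 1 lower in *gai* than in *ga4*. On NaCl, 1 to 2 were higher and 0 to 5 lower in *gai* than in *della5x*, and 1 higher and 0 to 1 lower in *ga4*. In *della5x*, 0 to 2 were higher and 0 to 1 lower at 1 h, 14 to 35 had a larger response at 8 h, and 0 to 1 were lower under mock conditions at 8 h than at 1 h. The calls over all genes moved in these fits too, so nothing particular to the members is read from the width of these ranges. The rule gave 85 genes with a log2 limit of 2 at 8 h and 24 with a limit of 3, and 31 to 54 with each L*er* library left out, with 7 of the 44 members in every one of those lists. The difference of 8 h and 1 h was 2.65 for *PS2* and 7.01 for *PRX52* without NaCl replicate 2 of 1 h, and changed sign for *PS2* (-0.057) and *PRX52* (-3.16) without *della5x* mock replicate 3 of 1 h, and for *PRX52* also without NaCl replicate 1 (-0.36) or 3 (-0.35) of 1 h or mock replicate 1 of 8 h (-0.30), and neither was called in those fits. Of 1220 values of single genes under the alternatives, 1144 kept direction and call, 65 lost the call, 6 gained it and 5 changed sign. The cause was not tested. Depth limits the members near 0 without salt.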
